A study of Rattus norvegicus with 6 samples.

Results

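The genes described here belong to the integrated stress response and the unfolded protein response, the programmes by which a cell slows protein synthesis and raises its folding capacity under stress. They were 37 genes taken by symbol from a table of 40456 genes, and all 37 were in the table and passed the expression filter. The measurements were poly-A RNA sequencing counts from H9c2 cells, a line of rat cardiomyoblasts, kept for 5 days in medium with 1% serum and 1 µM retinoic acid, which the study calls differentiation. In the control group 3 libraries came from cells transfected for 24 h with 25 nM of a negative control gapmer, and in the Tug1 group 3 libraries from cells given the same dose of a gapmer targeting Tug1, a long non-coding RNA. Gapmers are short antisense oligonucleotides with locked nucleic acid ends, and an RNA paired to one is cleaved by RNase H. All cells were of wild-type genotype, all received Lipofectamine 2000, and a single gapmer sequence was used per group, so that effects of the Tug1 RNA and of that oligonucleotide cannot be told apart. The study's title asks about the mitochondrial calcium uniporter and calcium signalling, and the stress genes were read here from the same libraries. The gapmers are shown because each group is defined by its own 16-base sequence.
Tug1 gapmer: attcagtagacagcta
Control gapmer: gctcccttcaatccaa

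In the integrated stress response, kinases such as PERK (gene Eif2ak3) and GCN2 (Eif2ak4) phosphorylate the initiation factor eIF2. Bulk translation then falls while the mRNA of the transcription factor ATF4 is translated more, and ATF4 raises genes for amino acid supply, redox balance and further stress regulators. In the unfolded protein response, PERK, IRE1 (Ern1) and ATF6 sense misfolded proteins in the endoplasmic reticulum (ER). IRE1 splices the Xbp1 mRNA, and spliced XBP1 and cleaved ATF6 raise genes for ER chaperones and for ER-associated degradation (ERAD), the route that returns misfolded proteins to the cytosol for the proteasome. Muscle cells fold large amounts of membrane and secreted protein in an ER that also stores calcium. Kinase activity, ATF4 translation, ATF6 cleavage and Xbp1 splicing are not visible in counts per gene, which report RNA abundance only.

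DNA elements for these factors are known, and the promoters of the members were searched for them because many members moved together. RefSeq promoters of the rat assembly GRCr8, each from 250 bases before to 50 after the gene start, were matched for 30 of the 37 members. The members without a match were Ern1, Atf6, Atf3, Manf, Pdia3, Pdia6 and Derl1. The motifs searched on both strands were the ER stress response element ERSE (CCAAT and CCACG with any 9 bases between them), the related ERSE-II (ATTGG, any 1 base, then CCACG), the unfolded protein response element UPRE (TGACGTGG), the C/EBP-ATF response element CARE (TGATGNAA) and the cyclic AMP response element CRE (TGACGTCA). ERSE was present in 6 of the 30 members with a promoter, against 0.0657% of all 33469 promoters and 0.138% of the 12289 promoters of tested genes. The members were chosen as genes of these responses, so higher shares among them, for ERSE or the other motifs, are not a result of these data. The ERSE matches are listed in motif orientation, with the fixed letters of the motif in capitals, to show that the spacer between them differs from gene to gene.
Hspa5: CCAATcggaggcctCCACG
Hsp90b1, upstream match: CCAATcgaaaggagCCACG
Hsp90b1, downstream match: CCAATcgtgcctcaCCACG
Creld2: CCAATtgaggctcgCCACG
Xbp1: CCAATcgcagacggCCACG
Canx: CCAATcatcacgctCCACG
Derl3: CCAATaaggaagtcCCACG

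ERSE-II was present in Hyou1 and Herpud1, 2 members, against 0.0508% of all promoters and 0.0814% of those of tested genes. In Hyou1, for which RefSeq gave 2 gene starts, both ERSE-II matches and the only UPRE match among the members lay in the promoter of a single start, and the UPRE match overlapped the upstream ERSE-II match. UPRE was present in 0.595% of all promoters and 0.797% of those of tested genes. CARE was present in Nupr1, Chac1, Trib3, Fgf21 and Herpud1, 5 members, against 3.98% of all promoters and 2.16% of those of tested genes. CRE was present in Ppp1r15a, 1 of the 30 members with a promoter, against 1.83% of all promoters and 2.93% of those of tested genes. A match describes letters in a window and is not evidence of binding, and a window without a match says only that these letters are not in it. Of the members with a match, Canx was called higher (log2 fold change 0.14), and Derl3 (0.12), Nupr1 (0.06) and Fgf21 (0.74) were not called. Creld2, Hyou1 and Ppp1r15a had a match and were called lower. Called lower with no match in their window were Stc2 (-1.12), Asns (-0.76), Sdf2l1, Ddit3, Pdia4 and Vldlr. So were Ddit4, Edem1, Atf4, Syvn1 and Cebpg. Eif2ak3, Eif2ak4, Atf5, Sesn2 and Sel1l had no match and were called higher, and Cebpb had none and was not called. Whether a match went with a fall was not tested. Upstream sequences are shown for 6 members that had a match and fell after the Tug1 gapmer: the chaperone genes Hspa5 and Hsp90b1, the transcription factor gene Xbp1, the ERAD gene Herpud1 with ERSE-II and CARE matches, and the ATF4 targets Trib3 and Chac1 with CARE matches. Each runs 5′ to 3′ on the strand of the gene over the 250 bases before its start in GRCr8, with motif matches in capitals.
Hspa5, chr3:38452766-38453015, plus strand: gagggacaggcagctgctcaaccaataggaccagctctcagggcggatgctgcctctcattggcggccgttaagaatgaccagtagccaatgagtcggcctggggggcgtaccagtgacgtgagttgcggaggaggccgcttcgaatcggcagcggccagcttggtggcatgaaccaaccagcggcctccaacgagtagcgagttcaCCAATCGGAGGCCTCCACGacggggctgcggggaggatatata
Hsp90b1, chr7:23012294-23012543, minus strand: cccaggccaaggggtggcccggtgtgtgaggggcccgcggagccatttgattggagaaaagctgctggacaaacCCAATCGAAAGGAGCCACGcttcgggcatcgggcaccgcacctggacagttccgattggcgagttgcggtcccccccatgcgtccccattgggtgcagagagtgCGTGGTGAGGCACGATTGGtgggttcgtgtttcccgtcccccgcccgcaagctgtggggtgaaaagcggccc
Xbp1, chr14:84604373-84604622, plus strand: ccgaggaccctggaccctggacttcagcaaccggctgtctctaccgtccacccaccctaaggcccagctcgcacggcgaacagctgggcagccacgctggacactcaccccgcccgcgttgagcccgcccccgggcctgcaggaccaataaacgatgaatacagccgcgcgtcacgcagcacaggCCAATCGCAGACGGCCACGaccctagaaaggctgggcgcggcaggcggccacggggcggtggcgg
Herpud1, chr19:10614708-10614957, minus strand: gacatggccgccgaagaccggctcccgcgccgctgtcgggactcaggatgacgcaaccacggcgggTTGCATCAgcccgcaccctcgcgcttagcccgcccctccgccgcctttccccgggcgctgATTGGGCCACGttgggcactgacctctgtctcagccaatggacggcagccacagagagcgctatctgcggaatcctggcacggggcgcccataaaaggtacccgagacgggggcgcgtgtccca
Trib3, chr3:161275534-161275783, minus strand: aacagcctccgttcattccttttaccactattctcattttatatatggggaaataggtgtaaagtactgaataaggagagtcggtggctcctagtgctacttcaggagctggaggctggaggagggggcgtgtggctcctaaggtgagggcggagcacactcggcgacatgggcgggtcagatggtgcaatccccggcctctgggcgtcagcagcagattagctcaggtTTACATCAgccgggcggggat
Chac1, chr3:126795881-126796130, plus strand: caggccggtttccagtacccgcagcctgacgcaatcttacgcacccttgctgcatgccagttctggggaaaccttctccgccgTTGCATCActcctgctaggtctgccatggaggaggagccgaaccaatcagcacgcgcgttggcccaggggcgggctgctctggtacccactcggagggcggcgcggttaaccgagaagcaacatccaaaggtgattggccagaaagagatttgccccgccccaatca

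**Figure D1:**
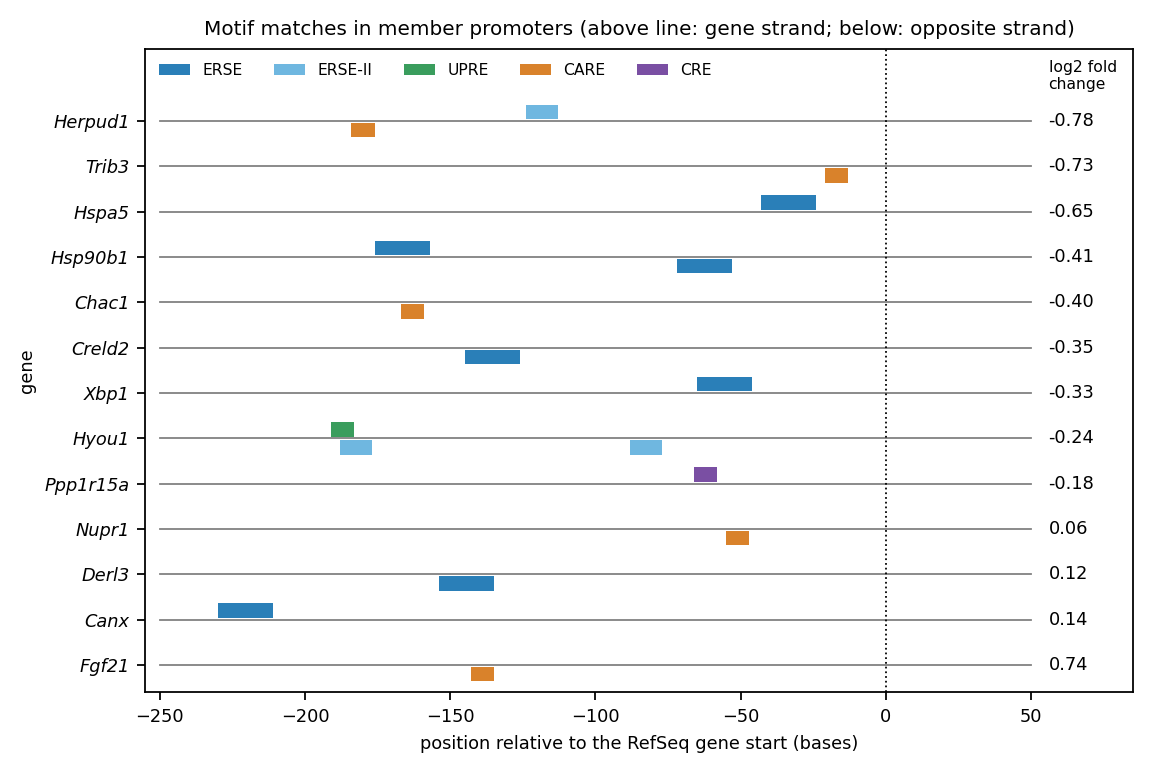
Positions of motif matches in the promoters of the 13 members that had any, in bases from the RefSeq gene start, with the log2 fold change of each gene (Tug1 gapmer over control gapmer) at the right. ERSE matches lay in genes that fell, such as Hspa5 at -0.65, and in Canx (0.14) and Derl3 (0.12).

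Total counts were 12978548 to 13544337 per library, so that 1 CPM, a count scaled to the size of its library, stood for 12.9 to 13.8 counts. Tug1 itself was at 54.6, 51.9 and 55.3 CPM in control replicates 1 to 3 and at 11.9, 11.2 and 12.4 CPM in Tug1 gapmer replicates 1 to 3, a fall to 22.0% of the control level (log2 fold change -2.19, SE 0.0786, edgeR adjusted p 4.39e-16). The labels call the cells cardiomyocytes, but 6 of 8 cardiomyocyte markers (Myh6, Tnni3, Nppa, Ryr2, Nkx2-5 and Myl7) had at most 4 counts in any library. The other 2, Tnnt2 and Actc1, were called higher, by 0.24 and 0.97 on the log2 scale, and the list summed to 344 to 379 CPM in controls and 406 to 457 CPM after the Tug1 gapmer. All 8 skeletal muscle markers were detected. The skeletal muscle markers summed to 1269 to 1285 CPM in controls and 1682 to 1829 CPM after the Tug1 gapmer, with 6 of 8 higher and 1 lower, and the fibroblast markers to 37120 to 38810 and 32210 to 34870 CPM, with 1 of 6 higher and 2 lower. The 5 endothelial markers summed to at most 4.47 CPM, with none called. The macrophage markers Ptprc and Adgre1 had 0 counts in every library, while the list of 5 summed to 77.7 to 81.3 and 49.6 to 50.0 CPM, with 1 higher and 1 lower. The part of these shifts in the results below was not tested, and in bulk samples fewer cells of a type and less RNA per cell cannot be told apart.

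Between the groups, 33 of the 37 members passed edgeR's quasi-likelihood test at an adjusted p under 0.05. After the Tug1 gapmer 8 of them were higher and 25 lower. Among all 14216 tested genes the same test called 61.7%, with 30.8% higher and 30.9% lower, so a call by itself says little about these genes in this comparison, while their split between higher and lower was uneven. The median log2 fold change was -0.26 over the members and 0.00 over all tested genes. For 31 members the values of the 2 groups did not overlap, 7 higher and 24 lower, against 65.6% of all tested genes, 33% higher and 32.6% lower. The ATF4 targets gave 2 higher and 10 lower of 15, the ER chaperone and ERAD genes 2 higher and 13 lower of 16, and the sensors and master regulators 4 higher and 2 lower of 6.

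**Figure D2:**
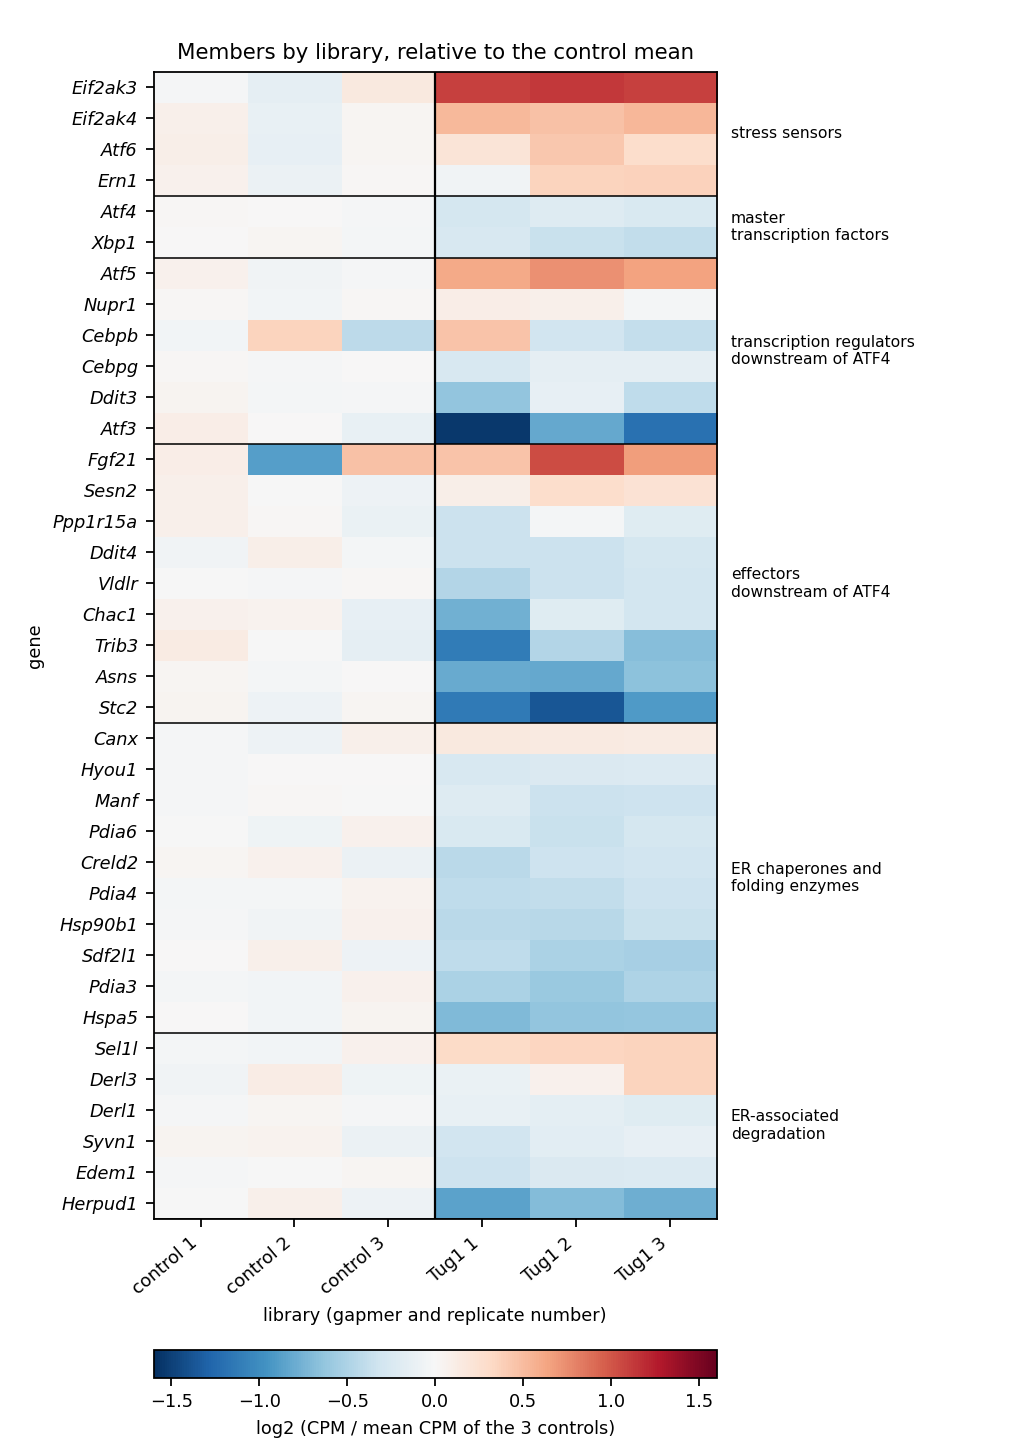
Each row is a member and each column a library, coloured by log2 of its CPM over the mean CPM of the 3 controls, with rows grouped by role. The 4 sensor genes are red after the Tug1 gapmer apart from Ern1 in replicate 1, and most ER chaperone genes are pale to mid blue in all 3 Tug1 gapmer libraries.

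Longer genes lay higher in this comparison across the whole table. The median log2 fold change was -0.21 in the tenth of tested genes with the shortest genomic span and 0.33 in the tenth with the longest. The members that rose had a median span at percentile 74.1 of the tested genes and those that fell at 23.4. Values from a fit with an offset for span are therefore given beside every member whose call it changed and beside some others. With that offset 27 members were called, 8 higher and 19 lower, against 62.1% called, 30.3% higher and 31.8% lower, of the 13084 genes with a span.

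The 4 sensor genes rose after the Tug1 gapmer, and 2 of them, Eif2ak3 and Eif2ak4, kept the call with the span offset. Eif2ak3, which encodes the ER-resident eIF2 kinase PERK, stood at 21.3, 19.6 and 24.1 CPM in control replicates 1 to 3 and at 46.1, 47.4 and 46.1 CPM in Tug1 gapmer replicates 1 to 3. The groups were far apart, and PERK mRNA rose to 215% of the control level, a log2 fold change of 1.10 (SE 0.0777, adjusted p 3.18e-11) and the largest rise among the members called higher. Eif2ak4, which encodes the amino acid sensor GCN2, had 47.6, 41.6 and 46.3 CPM in controls and 64.6, 62.6 and 65.5 CPM after the Tug1 gapmer. All 3 Tug1 gapmer values lay above all 3 controls, and the log2 fold change was 0.51 (SE 0.0629, adjusted p 2.76e-07). With the span offset Eif2ak3 was at 0.98 and Eif2ak4 at 0.34.

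Atf6, the gene of the ER membrane factor that is cut in the Golgi under stress, had 157, 135 and 151 CPM in controls and 171, 199 and 180.0 CPM after the Tug1 gapmer. Those groups did not overlap, and the log2 fold change was 0.31 (SE 0.0601, adjusted p 0.000104), but it was 0.01 with the span offset (adjusted p 0.832). Atf6 sits at percentile 94.6 of span. Ern1, the gene of the kinase and RNase IRE1, had 66.4, 59.2 and 63.7 CPM in controls and 60.8, 80.9 and 81.6 CPM after the Tug1 gapmer. Replicate 1 of the Tug1 gapmer lay among the controls while the other two lay above them. Its log2 fold change of 0.24 (SE 0.0823, adjusted p 0.0154) became 0.37 without that library and 0.06 with the span offset (adjusted p 0.555). DESeq2's Wald test did not call it (adjusted p 0.164), nor did the edgeR fits without Tug1 gapmer replicate 2 (0.18, adjusted p 0.0806), without Tug1 gapmer replicate 3 (0.17, adjusted p 0.112) or without control replicate 2 (0.19, adjusted p 0.0934).

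Atf4 and Xbp1, grouped here as master transcription factors, were lower, unlike the transcription factor gene Atf6 described above. Atf4 had 520, 517 and 505 CPM in controls and 424, 446 and 433 CPM after the Tug1 gapmer. The replicates of each group were close together, the groups did not overlap, and Atf4 mRNA fell to 84.5% of the control level (log2 fold change -0.24, SE 0.0419, adjusted p 2.82e-05). Atf4 is a very short gene, at percentile 3.55 of span, and with the span offset the difference was -0.04 (adjusted p 0.437). Xbp1, whose mRNA is the substrate of IRE1, had 79.9, 81.0 and 77.8 CPM in controls and 66.8, 62.3 and 60.7 CPM after the Tug1 gapmer. It fell by 0.33 on the log2 scale (SE 0.0569, adjusted p 2.64e-05) and was at -0.19 with the span offset (adjusted p 0.00313). The counts do not separate spliced from unspliced Xbp1.

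**Figure D3:**
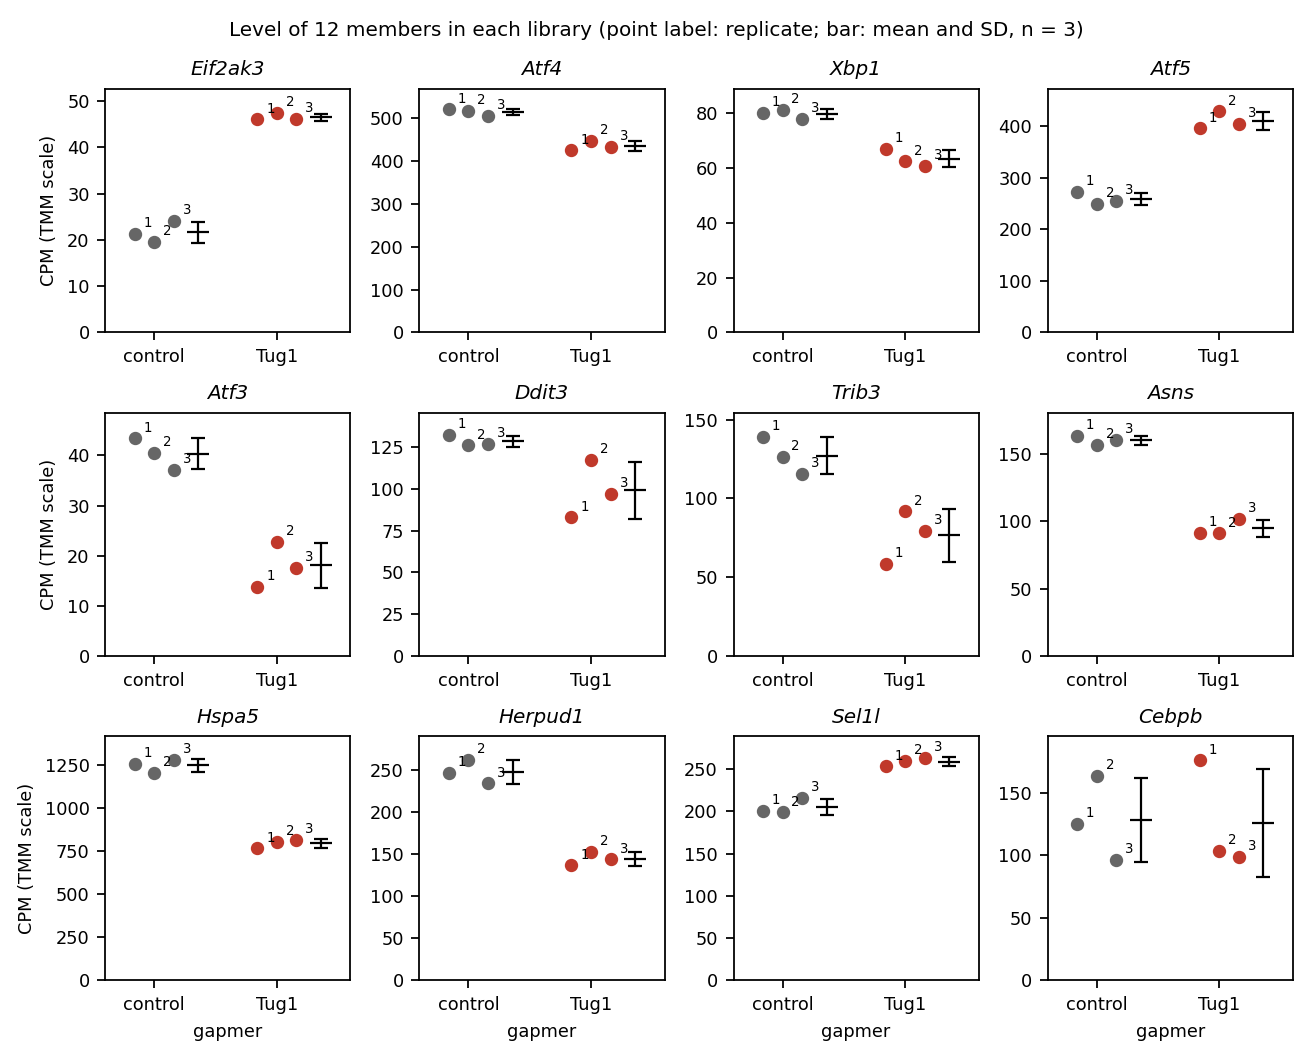
CPM on the TMM scale of 12 members in each library, with grey points for control and red points for Tug1 gapmer libraries numbered by replicate, and bars for mean and SD (n = 3). Eif2ak3, Atf5 and Sel1l are higher and Atf3, Trib3, Asns, Hspa5 and Herpud1 lower in all 3 Tug1 gapmer libraries, while the Cebpb points of the groups are interleaved.

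Of the 6 transcription regulators downstream of ATF4, 1 rose, 3 fell and 2 did not pass. Atf5, a relative of Atf4 that is itself under translational control, had 273, 249 and 256 CPM in controls and 396, 429 and 404 CPM after the Tug1 gapmer. Every Tug1 gapmer value exceeded every control, and Atf5 rose to 158% of the control level (log2 fold change 0.66, SE 0.0475, adjusted p 4.34e-11), against the direction of Atf4. It overlaps the coding genes Nup62 and Il4i1 in the GRCr8 table, with at most 997 counts in a library. With strand use in counting not stated, the Atf5 reads may include some of those neighbours. Atf3, an early stress-induced repressor and activator, had 43.3, 40.4 and 37.1 CPM in controls and 13.8, 22.8 and 17.6 CPM after the Tug1 gapmer. It fell to 44.9% of the control level (log2 fold change -1.16, SE 0.113, adjusted p 7.04e-09), and was at -1.27 with the span offset and -0.99 without Tug1 gapmer replicate 1, its lowest library.

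Ddit3 encodes CHOP, the regulator linked to death after prolonged ER stress. It had 132, 126 and 127 CPM in controls and 82.9, 117 and 96.7 CPM after the Tug1 gapmer, where the 3 libraries were much less alike than the controls but still all below them. It fell by 0.37 on the log2 scale (SE 0.0784, adjusted p 0.000254) and was at -0.26 without Tug1 gapmer replicate 1 and at -0.23 with the span offset (adjusted p 0.0135). Its span overlaps that of Mars1, a coding gene with up to 2526 counts in a library. Cebpg, a C/EBP partner of ATF4, fell by 0.18 (SE 0.0521, adjusted p 0.00424), a call that the span offset did not keep (-0.09, adjusted p 0.143). Nupr1, a small stress-induced chromatin protein gene, had a log2 fold change of 0.06 (SE 0.049, adjusted p 0.337), with 180.2 to 189 CPM in controls and 182 to 200.3 CPM after the Tug1 gapmer. With the span offset Nupr1 was at 0.26 (adjusted p 4.9e-05).

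Cebpb encodes a C/EBP factor with roles in stress and inflammation, and it varied more between replicates than between groups. It had 125, 164 and 96.4 CPM in controls and 176, 103 and 98.8 CPM after the Tug1 gapmer. The highest value of all 6 was Tug1 gapmer replicate 1 and the lowest was control replicate 3. The log2 fold change was -0.02 with an SE of 0.156 (adjusted p 0.901). Without Tug1 gapmer replicate 1 it was -0.34 (adjusted p 0.00657) and without control replicate 2 it was 0.19 (adjusted p 0.355), so that no direction can be given for Cebpb from these libraries.

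Of the 9 effector genes downstream of ATF4, 7 fell, 1 rose and 1 did not pass. Asns, the enzyme that makes asparagine from aspartate, had 163, 156 and 160.4 CPM in controls and 91.4, 90.9 and 102 CPM after the Tug1 gapmer. The groups were widely separated, and Asns fell to 59.2% of the control level (log2 fold change -0.76, SE 0.0536, adjusted p 3.47e-11; -0.72 with the span offset). Trib3, a pseudokinase that restrains AKT and ATF4, had 139, 127 and 115 CPM in controls and 58.7, 91.9 and 79.5 CPM after the Tug1 gapmer. It fell by 0.73 on the log2 scale (SE 0.0977, adjusted p 9.16e-07), and was at -0.57 without Tug1 gapmer replicate 1, the lowest library. Stc2, a secreted glycoprotein gene induced by ER stress, was at 16.5, 15.1 and 16.3 CPM in controls and 7.31, 6.20 and 8.52 CPM after the Tug1 gapmer. Stc2 fell to 46.0% of the control level (log2 fold change -1.12, SE 0.122, adjusted p 3.83e-08).

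Chac1, which degrades glutathione, had 33.7, 33.5 and 29.4 CPM in controls and 19.0, 28.1 and 26.2 CPM after the Tug1 gapmer. Replicate 1 was again the lowest, and the log2 fold change of -0.40 (SE 0.105, adjusted p 0.00215) became -0.24 without it (adjusted p 0.0214) and -0.22 with the span offset (adjusted p 0.0737). Vldlr, a lipoprotein receptor whose induction by ATF4 has been described, fell by 0.37 (SE 0.0466, adjusted p 4.28e-07), from 429 to 440.1 CPM in controls to 314 to 353 CPM. Ddit4, an inhibitor of mTORC1 also known as REDD1, fell by 0.32 (SE 0.0553, adjusted p 2.75e-05), but was at -0.12 with the span offset (adjusted p 0.0663). Ppp1r15a encodes GADD34, the phosphatase subunit that dephosphorylates eIF2. Its libraries overlapped, with 157, 150.0 and 138 CPM in controls and 116, 146 and 130 CPM after the Tug1 gapmer, and its log2 fold change of -0.18 (SE 0.0653, adjusted p 0.0183) was -0.10 without Tug1 gapmer replicate 1 (adjusted p 0.150) and -0.00408 with the span offset (adjusted p 0.961). Library totals in place of TMM also ended that call (adjusted p 0.0833), as did leaving out control replicate 1, control replicate 2 or Tug1 gapmer replicate 3 (adjusted p 0.0516 to 0.111).

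Sesn2, a stress-induced inhibitor of mTORC1 that is also a p53 and NRF2 target, went the other way. It had 131, 124 and 118 CPM in controls and 133, 151 and 146 CPM after the Tug1 gapmer, and it rose by 0.20 on the log2 scale (SE 0.0561, adjusted p 0.00333). The lowest Tug1 gapmer library, replicate 1, exceeded the highest control by a small margin. Fgf21, a hormone gene induced by ATF4 in muscle and liver, was barely detected, with 14, 7 and 18 counts in controls and 19, 28 and 21 counts after the Tug1 gapmer. Its log2 fold change of 0.74 (SE 0.335) had an adjusted p of 0.0608, and at this depth no difference was established. Fgf21 passed in 5 of the alternative fits. Among them were the span offset (0.95, adjusted p 0.0173), library totals (adjusted p 0.0446) and the fit without control replicate 3 (1.05, adjusted p 0.0314).

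Among the 10 genes for ER chaperones and folding enzymes, 9 fell and 1 rose. Hspa5 encodes BiP, the main ER chaperone and the brake on PERK, IRE1 and ATF6. It had 1256, 1206 and 1280.3 CPM in controls and 766, 806 and 815 CPM after the Tug1 gapmer. The replicates of each group differed little beside the gap between the groups, and Hspa5 fell to 63.8% of the control level (log2 fold change -0.65, SE 0.0422, adjusted p 8.68e-12; -0.50 with the span offset). Hsp90b1 encodes GRP94, the HSP90 of the ER, and had 1110, 1089 and 1188 CPM in controls and 837, 832 and 881 CPM after the Tug1 gapmer. That was a fall of 0.41 on the log2 scale (SE 0.0438, adjusted p 2.94e-08). Both promoters carry the ERSE matches shown above.

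The 3 protein disulfide isomerases among the members, which form and rearrange disulfide bonds, fell as well. Pdia3, the partner of calnexin and calreticulin, had 1288, 1275 and 1375 CPM in controls and 922, 866 and 931 CPM after the Tug1 gapmer (log2 fold change -0.53, SE 0.0439, adjusted p 4.14e-10). Pdia4 was at -0.38 (adjusted p 7.8e-08) and Pdia6 at -0.30 (adjusted p 1.03e-05), with no overlap between the groups for either. Sdf2l1, a BiP cofactor that is strongly induced by ER stress, had 33.8, 35.6 and 31.9 CPM in controls and 25.4, 23.9 and 23.4 CPM after the Tug1 gapmer. Its log2 fold change was -0.48 (SE 0.0766, adjusted p 1.04e-05), and -0.28 with the span offset (adjusted p 0.00176). Smaller falls were found for Creld2 (-0.35), the secreted ER protein Manf (-0.29) and Hyou1 (-0.24), the exchange factor and relative of BiP. Each of these kept its call with the span offset, Creld2 at -0.25, Hyou1 at -0.17 and Manf narrowly (-0.12, adjusted p 0.0474). Creld2 overlaps the coding gene Alg12 in the GRCr8 table.

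Canx, the membrane lectin chaperone calnexin, was the exception among the chaperones. It had 984, 943 and 1054 CPM in controls and 1108, 1099 and 1088 CPM after the Tug1 gapmer, a rise of 0.14 on the log2 scale (SE 0.0438, adjusted p 0.00647). The margin between the highest control and the lowest Tug1 gapmer library was small, and without control replicate 2 the rise was 0.11 and no longer passed (adjusted p 0.0641).

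Of the 6 ERAD genes 4 fell, 1 rose and 1 did not pass. Herpud1, a membrane scaffold of the degradation complex and a sensitive marker of ER stress, had 247, 263 and 235 CPM in controls and 137, 153 and 144 CPM after the Tug1 gapmer. It fell to 58.3% of the control level (log2 fold change -0.78, SE 0.053, adjusted p 1.95e-11), the largest fall of the chaperone and ERAD genes, and was at -0.75 with the span offset. Edem1, which marks misfolded glycoproteins by trimming mannose, fell by 0.26 (adjusted p 4.68e-05). Sel1l and Syvn1 encode the adaptor and the ubiquitin ligase HRD1 of the same complex, and they moved apart. Sel1l had 201, 199 and 216 CPM in controls and 254, 260 and 263 CPM after the Tug1 gapmer, a rise of 0.34 (SE 0.0469, adjusted p 1.66e-06; 0.26 with the span offset).

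Syvn1 had 78.0, 78.5 and 70.9 CPM in controls and 61.3, 67.6 and 69.4 CPM after the Tug1 gapmer, a log2 fold change of -0.20 (SE 0.0616, adjusted p 0.00771). That call was lost without Tug1 gapmer replicate 1 (-0.14, adjusted p 0.0605) and with the span offset (-0.10, adjusted p 0.14), and Syvn1 overlaps the coding gene Mrpl49. Derl1, a channel component of ERAD, fell by 0.16 (SE 0.0473, adjusted p 0.00665) and was not called with library totals in place of TMM (-0.10, adjusted p 0.0635). Derl3, its stress-induced relative, was low, with 73 to 83 counts in controls and 76 to 100 counts after the Tug1 gapmer, and did not pass (log2 fold change 0.12, SE 0.156, adjusted p 0.529). Its span overlaps that of the coding gene Smarcb1, with up to 485 counts in a library, so its counts may include reads of that neighbour.

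**Figure D4:**
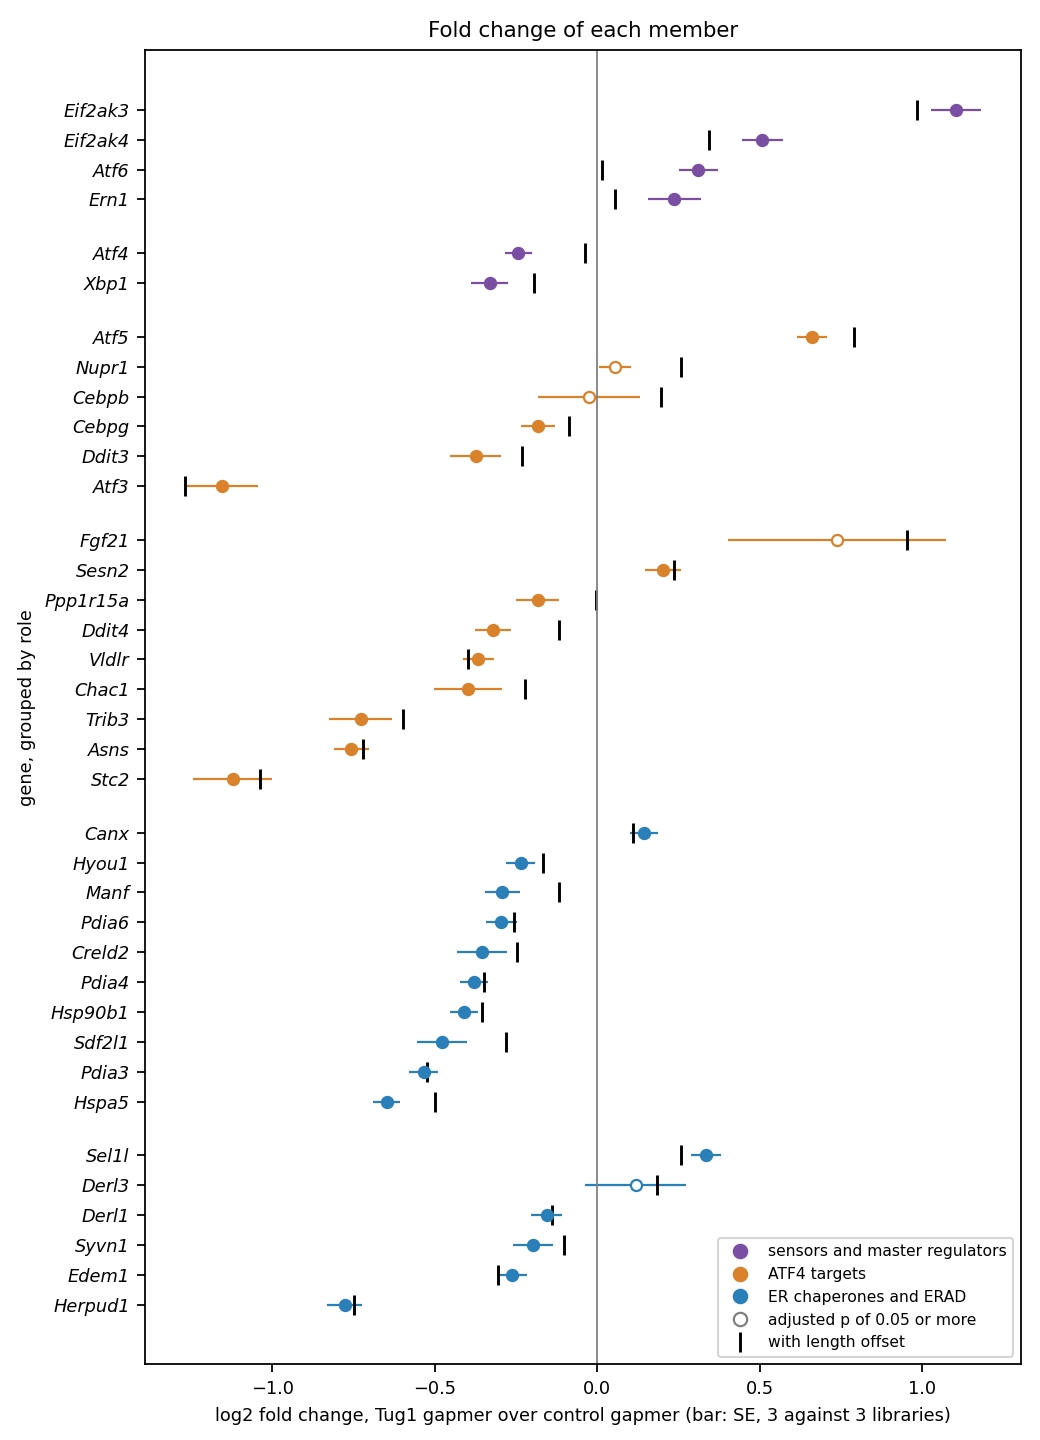
Log2 fold change of each member (Tug1 gapmer over control gapmer, bar: SE, 3 against 3 libraries), grouped by role, with open circles for genes not past an adjusted p of 0.05 and a black tick for the value with the span offset (length offset in the key). The ER chaperone and ERAD points other than Canx, Sel1l and Derl3 lie left of 0 with and without the offset. The ATF4 targets run from -1.16 to 0.74, where the upper end is Fgf21, which was not called.

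Set side by side, the ATF4 targets and the ER chaperone and ERAD genes had like medians and unlike spreads. The median log2 fold change was -0.32 for the ATF4 targets, from -1.16 (Atf3) to 0.74 (Fgf21), and -0.29 for the ER chaperone and ERAD genes, from -0.78 (Herpud1) to 0.34 (Sel1l). Fgf21 was barely detected and not called, and the highest called ATF4 target was Atf5 at 0.66. The median over the ATF4 targets, as log2 of CPM over the control mean, was -0.35, -0.19 and -0.30 in Tug1 gapmer replicates 1 to 3, and that over the ER genes -0.32, -0.33 and -0.29. In the 3 controls it ran from -0.02 to 0.04 for the ATF4 targets and from -0.01 to 0.02 for the ER genes. The ER genes thus sat at nearly the same level in the 3 Tug1 gapmer libraries, and the ATF4 targets did not.

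The spread between replicates was also unlike, though no test compared it. The median coefficient of variation of the ATF4 targets was 5.51% in controls and 11.2% after the Tug1 gapmer, and that of the ER genes 4.61% and 3.96%, while over all tested genes it was 6.72% and 6.77%. Of the 15 ATF4 targets, 10 had their lowest Tug1 gapmer value in replicate 1, as did 9 of the 16 ER genes and 4771 of the 14216 tested genes. Without that library 13 ATF4 targets were called, 3 higher and 10 lower, with a median of -0.26, and 14 ER genes, 2 higher and 12 lower, with a median of -0.32. The share of all tested genes called in that fit is not given here, so these counts have no background beside them. The span offset moved the ATF4 targets more: their median became -0.12, with 4 called higher and 6 lower, and that of the ER genes became -0.25, with 2 higher and 12 lower. The ATF4 targets had a median span at percentile 14.7 and the ER genes at 39.3. No test of the difference between the gene groups was made.

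Other genes of the same pathways, 78 in 6 lists that do not include the members, gave a mixed picture. Of the 77 that were tested, 58 (75.3%) were called, 18 higher and 40 lower, with a median log2 fold change of -0.16. Among all tested genes 61.7% were called, and in the 6 lists the share ran from 64.3% (other ERAD genes) to 92.3% (other ATF4 targets). With the span offset 51 were called, 12 higher and 39 lower, against 62.1% of all genes with a span. Among 13 genes that set or reverse eIF2 phosphorylation or form eIF2 and its exchange factor eIF2B, 8 fell and 2 rose. Eif2ak2, the interferon-induced kinase PKR, fell from 276, 272 and 265 CPM to 115, 179 and 174 CPM (log2 fold change -0.80, SE 0.0945, adjusted p 1.38e-07), again lowest in replicate 1. Eif2s1, the eIF2 subunit that the kinases phosphorylate, fell by 0.52 (adjusted p 1.14e-08), while the heme-regulated kinase gene Eif2ak1 (0.13) and the PERK inhibitor gene Dnajc3 (0.17) rose slightly. With the span offset neither was called (adjusted p 0.0905 and 0.164), nor with no filter beyond 1 count (adjusted p 0.0632 and 0.0536). Both calls were also lost without control replicate 1, control replicate 2 or Tug1 gapmer replicate 3, with log2 fold changes of 0.13, 0.10 and 0.13 for Eif2ak1 and 0.15, 0.13 and 0.16 for Dnajc3, and that of Dnajc3 without Tug1 gapmer replicate 1 as well (0.15, adjusted p 0.08) and in DESeq2's Wald test (adjusted p 0.0605).

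Among 13 other genes known as ATF4 targets 5 rose and 7 fell. Phgdh, the entry enzyme of serine synthesis, rose from 36.7, 32.9 and 30.5 CPM to 66.2, 71.0 and 73.4 CPM (log2 fold change 1.07, SE 0.07, adjusted p 8.9e-12). Gdf15, a stress-induced cytokine gene, rose by 0.79 (SE 0.285, adjusted p 0.0201) at a low level of 1.16 to 1.61 CPM in controls. That call was lost in DESeq2's Wald test (adjusted p 0.0668) and without Tug1 gapmer replicate 1 (0.72, adjusted p 0.0621), Tug1 gapmer replicate 2 (0.66, adjusted p 0.0911), control replicate 2 (0.71, adjusted p 0.0763) or control replicate 3 (0.71, adjusted p 0.0726). The cystine transporter gene Slc7a11 (-0.76, adjusted p 7.15e-08) and the translation repressor gene Eif4ebp1 (-0.64, adjusted p 2.16e-08) fell. Rises and falls thus stood side by side in this list.

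Of the 7 other ER stress transcription factors and proteases, 3 rose and 2 fell. Mbtps1 (0.21) and Mbtps2 (0.46), the Golgi proteases that cut ATF6, rose, and Crebrf (-0.99, adjusted p 3.99e-09) and the secretory pathway factor gene Creb3l1 (-0.48, adjusted p 1.45e-06) fell. Other ER folding genes gave 2 rises and 10 falls among 18 tested. Txndc5, a disulfide isomerase relative, fell from 326, 341 and 339 CPM to 191, 187 and 189 CPM (log2 fold change -0.83, SE 0.0442, adjusted p 3.57e-13), the cyclophilin gene Ppib fell by 0.64, and the oxidase gene Ero1b rose by 0.97 (adjusted p 3.1e-06). Erp44 was at 0.17 (adjusted p 0.02) and at -0.01 with the span offset (adjusted p 0.882), and was not called without control replicate 2 (0.10, adjusted p 0.158) or Tug1 gapmer replicate 3 (0.15, adjusted p 0.0731). Fkbp2 had 1 to 8 counts per library and was not tested.

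ERAD genes outside the members were split evenly, with 5 higher and 4 lower of 14. Selenos, a selenoprotein of the ERAD complex, rose from 58.3, 59.1 and 60.8 CPM to 108, 114 and 108 CPM (log2 fold change 0.89, SE 0.0545, adjusted p 3.13e-12), and the lectin gene Os9 rose by 0.57. The ubiquitin ligase gene Rnf139 fell by 1.07 (adjusted p 3.49e-12). Of 12 genes for the translocation of proteins into the ER, 9 fell and 1 rose. The pore gene Sec61a1 was the one that rose, from 270.0, 264 and 264 CPM to 420, 444 and 432 CPM (log2 fold change 0.70, SE 0.0433, adjusted p 3.67e-12), while the signal peptidase genes Spcs3 (-0.52) and Spcs2 (-0.33) and the translocon-associated gene Ssr1 (-0.14) fell. The Ssr1 call was lost with library totals (-0.09, adjusted p 0.0847) and without control replicate 3 (-0.11, adjusted p 0.0554).

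**Figure D5:**
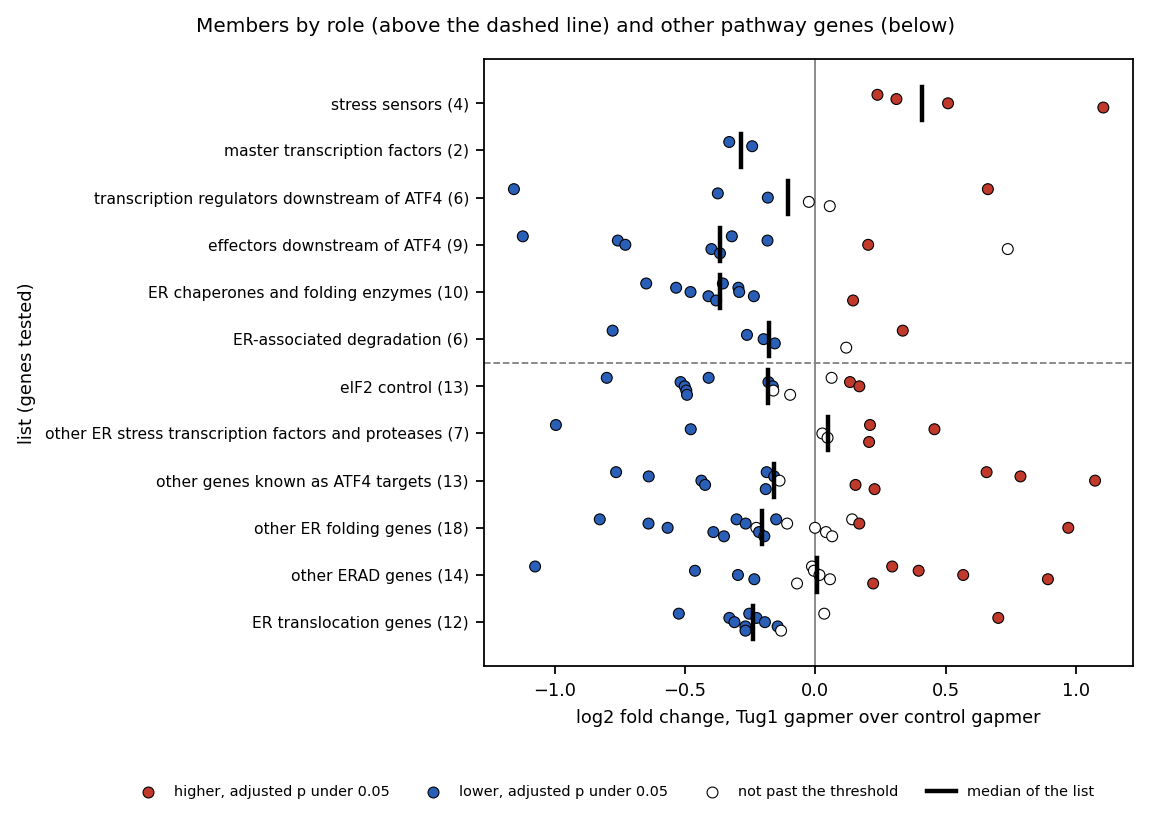
Log2 fold changes of the members by role and of the other pathway genes by list, with filled points past an adjusted p of 0.05, open points not past it and a bar at each list's median; vertical scatter only separates points. The medians of the member lists run from -0.37 for the ER chaperones and folding enzymes to 0.41 for the sensors, and those of the other lists from -0.24 to 0.05.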

How the data were processed

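Counts per gene symbol were deposited by the authors for 6 libraries, without scaling or pooling. Per the labels' protocols, stranded libraries were made from 500 ng of RNA (integrity number at least 9) after poly-A selection. The submitters' processing notes name FastQC 0.11.7, fastp 0.14.1 and STAR 2.5; counting tool, build, annotation and use of strand are not given in the sources used here, and 14 members overlap another gene in the GRCr8 table. Nothing in the labels says that replicates were separate cultures. The p-values therefore set the group difference against the spread between these libraries, which may be technical.

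All 14216 genes passing edgeR's filter (minimum count 10, minimum total 15) were fitted in R 4.3.3 with edgeR 4.0.16 (TMM, quasi-likelihood test, two-sided, Benjamini-Hochberg over all tested genes), and changed means an adjusted p under 0.05. SE is the absolute log2 fold change over the root of the F statistic. Levels are CPM on the TMM scale. The members, lists, roles, motifs and alternatives were chosen with earlier results of these data known. Named are all members, Tug1 and, per pathway list, the 2 highest and 2 lowest called genes without overlap between groups, of which 1 is not reported here. The span offset takes out of each library its lowess trend (span 0.3) of log2 level, relative to the mean, against log2 of the gene's genomic span. Alternatives included DESeq2 1.42.0 and limma-voom (limma 3.58.1). On simulated counts with 200 changed genes per run, the edgeR test recovered 30.2% at an absolute log2 change of 0.25, 76.3% at 0.5 and 94.9% at 1. Those runs used the same dispersion for every gene, and in the data 61.7% of the tested genes were called. The recovered shares therefore do not carry over to this comparison. Replicate numbers did not pair the libraries. Counts without molecular identifiers are not independent molecules.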

Additional observations from a re-analysis of the deposited data

How the results depend on the processing

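All alternatives were planned, but with earlier results of these data known. The count of members called was 33 and ran from 27 with the span offset to 34. Shares over all tested genes are given only for the reported fit and the span offset. The direction of Tug1 and its call held in every alternative (-2.22 to -2.08). The sensors and master regulators went from 6 called to 3 with the span offset, with or without the replicate block, losing Ern1, Atf6 and Atf4. The ATF4 target median moved from -0.32 to -0.1174 with the offset and -0.1173 with the block added. The ER chaperone and ERAD median moved from -0.2935 to -0.2405 with library totals, to -0.2514 with the offset and -0.2513 with the block added, and lay between -0.3161 and -0.2701 with 1 library left out. Replicate numbers did not pair the libraries (correlations of deviations -0.0129, 0.0528 and 0.0438 for numbers 1, 2 and 3); with the replicate block alone 33 members were called and no member changed its call. Over 592 combinations of member and alternative, 30 lost a call, 8 gained one and 7 changed sign, in 14 members. The alternatives include the reported fit read at an adjusted p under 0.01, which called 31 members and dropped Ern1 and Ppp1r15a. Cebpb changed sign with library totals (0.0285), the offset (0.196, and 0.184 with the block) and without control replicate 2 (0.187), Tug1 gapmer replicate 2 (0.102) or replicate 3 (0.126), and ran from -0.342 to 0.187 with 1 library left out. Derl3 was at -0.00985 without Tug1 gapmer replicate 3 and at most 0.221 without another library. Neither was called in the reported fit. For these changes the cause was not tested. Fgf21 was read at low counts, 7 to 28 per library.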
